A study of Rattus norvegicus with 20 samples.

Results

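The genes described here are 9 rat liver genes of peroxisomal fatty acid oxidation and of the peroxisome itself: Ehhadh, Ech1, Acox3, Acaa1a, Hsd17b4, Pex11a, Decr2, Abcd3 and Cat. The rule that gives the set names gene symbols and no measured value, but the set was chosen with earlier results of these data known. Each gene is represented by the probe set (the group of array probes for 1 transcript) with the highest mean over all rats. All 9 were measured, out of 14217 genes with a probe set of a single gene symbol, and they have 10 probe sets of the 31039 tested. The probe set of Acaa1a is annotated to both Acaa1a and Acaa1b, so its values are given as those of the Acaa1a/Acaa1b pair. The other 8 genes have a probe set of their own, and Pex11a has a second, dimmer one.

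Liver RNA was measured in 20 male Sprague-Dawley rats, 5 per diet group, each on its own Affymetrix Rat Genome GeneChip. The rats were obtained at 4 weeks of age and ate their diet for 21 days. The groups received tofu and fish oil (TF), casein and fish oil (CF), tofu and soybean oil (TS) or casein and soybean oil (CS). Every diet held 200 g/kg of protein and 150 g/kg of fat, and in the fish oil diets 50 g/kg of tuna-derived fish oil took the place of the same amount of soybean fat. The tofu was freeze-dried and brought soybean fat with it, and the tofu diets also contained some casein. The rats of a group with the highest and lowest food consumption were not put on arrays, and food was withheld for some hours before the livers were taken.

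Peroxisomes are small organelles in which very-long-chain and other poorly metabolised fatty acids are shortened by β-oxidation, with hydrogen peroxide as a by-product. In the rodent liver many genes of this pathway are targets of the fatty acid receptor PPARα, and PPARα agonists make peroxisomes multiply. Long-chain n-3 fatty acids, which fish oil supplies, are known ligands of this receptor.

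Levels are given as z on a log scale, in which 0 lies near the middle of an array and a difference of 0.2 corresponds to 1.41-fold by the study's methods. TF-3 stands for the TF rat that the labels number 3, and the other rats are written the same way. The oil effect is the mean of TF and CF minus the mean of TS and CS, and the protein effect is the mean of TF and TS minus the mean of CF and CS, each over 10 rats against 10. Adjusted p values are from limma over all 31039 probe sets, and a gene was called changed at an adjusted p under 0.05. Labels do not pair the rats of different groups, and each rat is a separate animal. The spread of the arrays (SD 0.725 to 0.774) and their mean correlation with one another (0.939 to 0.956) were similar. In 4 rats, 1 of each group (TF-3, CF-1, TS-1 and CS-1), the 5′ β-actin control was between 1.30 and 1.42, against 1.86 to 2.13 in the other 16. The 3′ β-actin control was also lowest in these 4 rats, at 2.09 to 2.20, against 2.34 to 2.62 in the others. Where a call described here was lost without these 4 rats, the adjusted p without them is given.

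Fish oil was accompanied by higher mRNA of 6 of the 9 genes. Ehhadh, Ech1 and Pex11a were more than 2-fold higher in the fish oil groups, the Acaa1a/Acaa1b pair and Decr2 were higher by smaller amounts, and Abcd3 was higher by the least of the 6. Hsd17b4, Cat and Acox3 were not called. None of the 9 genes was lower with fish oil at the threshold. Among all probe sets 0.193% were called for the oil effect, and 0.177% were called as higher. At an unadjusted p under 0.05 there were 7 of the 9 genes, Hsd17b4 besides the 6, beside 5.55% of all probe sets. The median oil effect of the 9 genes was 0.26, against -0.0011 over all probe sets. In whole liver, fewer cells of a type and less RNA per cell cannot be told apart.

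**Figure D1:**
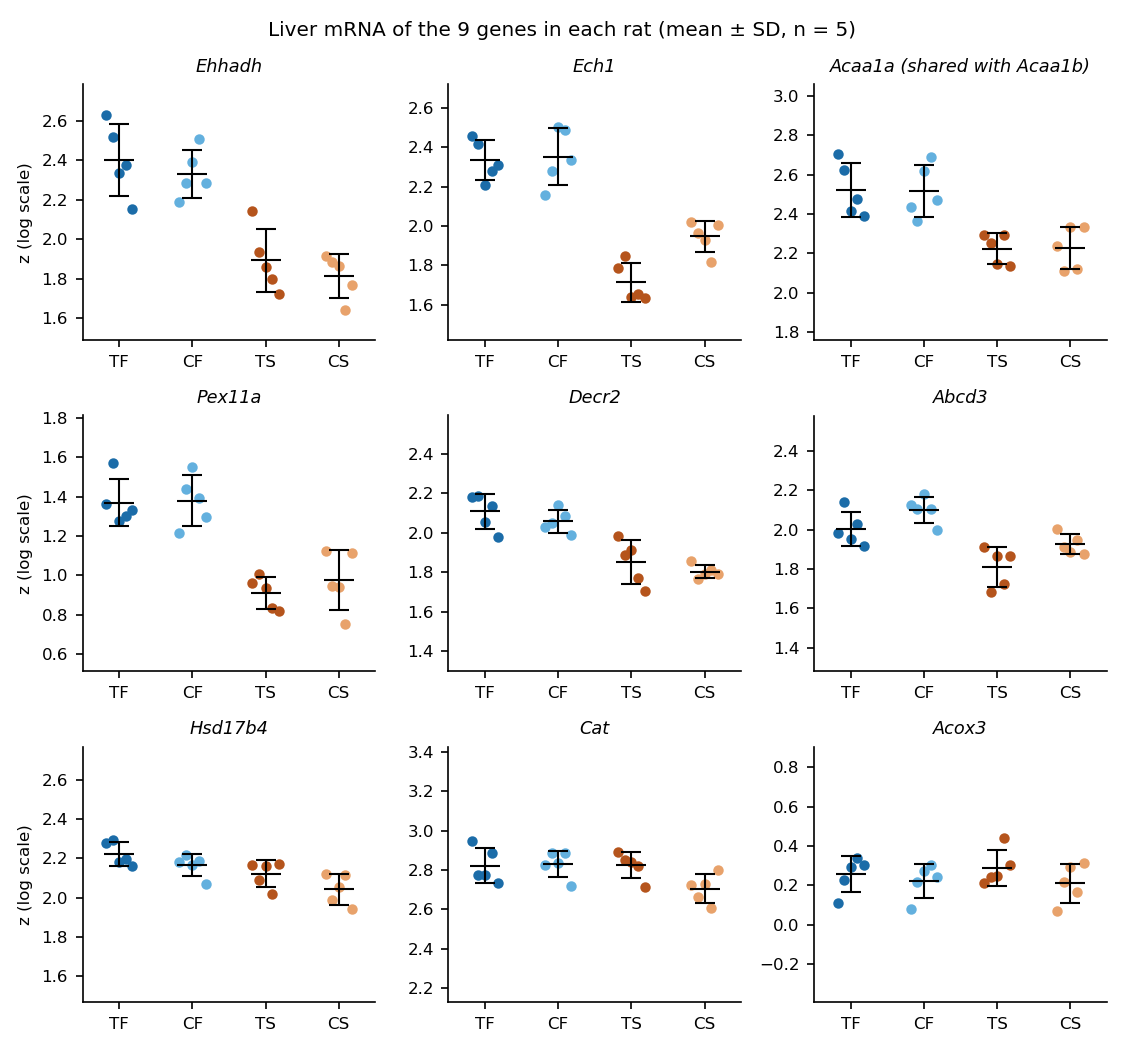
Level of each of the 9 genes in the liver of each rat (y axis, z on a log scale, the same span of 1.3 in every panel) by diet group (x axis, TF, CF, TS and CS). Points are rats and black lines are the mean ± SD of 5 rats. The fish oil groups lie above the soybean oil groups without overlap for Ehhadh, Ech1, Acaa1a/Acaa1b and Pex11a. For Hsd17b4, Cat and Acox3 fish oil and soybean oil rats overlap, although every TF rat lies above every CS rat for Hsd17b4.

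Upstream sequences are shown for 2 genes that rose, Ehhadh and Pex11a, and for Cat, which did not, so that the letters before each start can be set beside the response. They are RefSeq sequences of build GRCr8, the 250 bases before the annotated start, written 5′ to 3′ on the strand of the gene. Capitals mark matches on either strand to AGGNCA (the hexamer that nuclear receptors such as PPARα bind), CCAAT and GGGCGG. The positions are chr11:92746159-92746408 on the plus strand for Ehhadh, chr1:143096492-143096741 on the minus strand for Pex11a and chr3:110329527-110329776 on the minus strand for Cat.
Ehhadh: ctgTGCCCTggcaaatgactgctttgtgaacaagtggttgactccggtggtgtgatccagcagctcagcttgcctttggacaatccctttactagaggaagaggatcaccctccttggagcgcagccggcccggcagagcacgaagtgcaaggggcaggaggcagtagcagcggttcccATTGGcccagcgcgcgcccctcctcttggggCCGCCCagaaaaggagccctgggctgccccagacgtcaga
Pex11a: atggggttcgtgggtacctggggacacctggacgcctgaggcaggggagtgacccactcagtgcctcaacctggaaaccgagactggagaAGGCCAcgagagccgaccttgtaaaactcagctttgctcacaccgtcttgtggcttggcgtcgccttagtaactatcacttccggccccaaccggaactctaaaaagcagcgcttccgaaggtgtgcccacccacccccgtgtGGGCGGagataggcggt
Cat: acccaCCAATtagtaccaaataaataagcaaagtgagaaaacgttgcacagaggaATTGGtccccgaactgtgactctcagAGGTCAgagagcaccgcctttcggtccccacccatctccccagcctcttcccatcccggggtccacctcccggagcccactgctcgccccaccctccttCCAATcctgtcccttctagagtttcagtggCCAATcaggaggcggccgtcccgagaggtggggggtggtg

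Promoter windows of 300 bases (250 before and 50 after the start) were available for 8 of the 9 genes, all but Ech1. An AGGNCA match stood in 4 of these 8 windows, those of Ehhadh, Hsd17b4, Pex11a and Cat, against 57.1% of all 33469 rat promoter windows. The arrangement that PPARα prefers, copies of AGGNCA in the same direction 1 base apart, was in none of the 8 and in 0.415% of all windows. A count of 0 among 8 windows is near that share, and sequence outside the windows was not searched. CCAAT was in 4 windows (37.5% of all), with 5 matches in Cat, 3 in Acaa1a and 1 each in Ehhadh and Decr2. GGGCGG was in 7 windows (33.1% of all), every one but that of Cat, and TATAAA was in none (14.2% of all). These matches describe letters only.

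Abcd3 encodes PMP70, a transporter in the peroxisomal membrane that takes fatty acyl-CoA into the organelle. Its z was 1.98, 2.14, 1.95, 2.03 and 1.92 in the TF rats and 2.12, 2.11, 2.18, 2.10 and 1.997 in the CF rats, against 1.91, 1.68, 1.87, 1.72 and 1.87 in the TS rats and 2.005, 1.91, 1.89, 1.95 and 1.88 in the CS rats. The ranges of the TF and TS rats did not overlap, although the lowest TF rat (TF-7) and the highest TS rat (TS-1) were nearly level. The CF and CS rats overlapped at CF-7 and CS-1. Abcd3 rose with fish oil by 0.19 (SE 0.0369, 95% interval 0.11 to 0.26), or 1.38-fold, with an adjusted p of 0.0431. This call was the least secure of the 6. With 1 rat left out the adjusted p lay between 0.0298 and 0.113, and it stayed under 0.05 only without CF-7, CS-1, TF-7 or TS-1. It was 0.0979 without the 4 rats with low 5′ β-actin and 0.139 without the 3 arrays least correlated with the others (TS-7, TF-4 and TF-5).

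Within the peroxisome an acyl-CoA oxidase opens each round of β-oxidation. Acox3, an acyl-CoA oxidase that acts on branched-chain substrates, was dim on these arrays, with z of 0.11, 0.23, 0.30, 0.34 and 0.31 in the TF rats and 0.082, 0.22, 0.27, 0.30 and 0.24 in the CF rats, against 0.21, 0.24, 0.25, 0.44 and 0.30 in the TS rats and 0.069, 0.22, 0.29, 0.17 and 0.31 in the CS rats. All 4 groups overlapped almost completely. The oil effect was -0.011 (95% interval -0.10 to 0.077, adjusted p 1.0), and its sign turned when TF-3, CF-1, TS-5 or CS-7 was left out, with 0.0084 as the highest of these values. In each group the lowest Acox3 belonged to the rat with low 5′ β-actin, on average 0.16 below the other rats of its group. The part of this in the Acox3 values was not tested.

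Ehhadh, the L-bifunctional enzyme, carries out the hydration and dehydrogenation steps for straight-chain and dicarboxylic substrates. Its z was 2.63, 2.52, 2.33, 2.38 and 2.15 in the TF rats and 2.19, 2.28, 2.39, 2.51 and 2.28 in the CF rats, against 2.14, 1.93, 1.86, 1.80 and 1.72 in the TS rats and 1.92, 1.88, 1.86, 1.64 and 1.77 in the CS rats. Every fish oil rat was above every soybean oil rat, although TF-7 at 2.15 was only just above TS-1 at 2.14. The group means were 2.40 ± 0.182 in TF and 2.33 ± 0.121 in CF, against 1.89 ± 0.160 in TS and 1.81 ± 0.112 in CS (SD, n = 5 each). TF and CF overlapped, as did TS and CS. Ehhadh rose with fish oil by 0.51 (SE 0.0631, 95% interval 0.38 to 0.65), or 2.44-fold, with an adjusted p of 0.000317. Leaving out any 1 rat kept the adjusted p between 9.90e-05 and 0.00118.

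Hsd17b4, the D-bifunctional enzyme, does the same steps for branched-chain, very-long-chain and bile acid precursors. Its z was 2.28, 2.29, 2.18, 2.20 and 2.16 in the TF rats and 2.18, 2.21, 2.16, 2.19 and 2.07 in the CF rats, against 2.17, 2.09, 2.16, 2.02 and 2.17 in the TS rats and 2.12, 1.99, 2.05, 2.11 and 1.94 in the CS rats. The neighbouring groups overlapped throughout, although every TF rat was above every CS rat. The range of the whole set was narrow, between 1.94 and 2.29. The oil effect was 0.11 (SE 0.0322, 95% interval 0.043 to 0.18), with an adjusted p of 0.429 and an unadjusted p of 0.00277. It was called under 1 alternative, in which all arrays were given an equal median and interquartile range, with an adjusted p of 0.0498.

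The thiolases Acaa1a and Acaa1b cleave the last intermediate of each round and release acetyl-CoA. The array does not tell the pair apart, so the signal may come from either gene or from both. The shared probe set had z of 2.71, 2.62, 2.41, 2.48 and 2.39 in the TF rats and 2.44, 2.37, 2.62, 2.69 and 2.47 in the CF rats, against 2.29, 2.25, 2.15, 2.29 and 2.14 in the TS rats and 2.24, 2.11, 2.33, 2.12 and 2.33 in the CS rats. Every fish oil rat was above every soybean oil rat, with the gap between CF-2 at 2.37 and CS-5 at 2.33. The pair rose with fish oil by 0.29 (SE 0.0513, 95% interval 0.19 to 0.40), or 1.66-fold, with an adjusted p of 0.0139. The adjusted p was 0.0771 without the 4 rats with low 5′ β-actin and 0.0855 without the 3 least correlated arrays. The effect itself was 0.29 and 0.28 in those fits.

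Polyunsaturated fatty acids such as those of fish oil need auxiliary enzymes that move or reduce their double bonds. Ech1, a dienoyl-CoA isomerase, had z of 2.46, 2.42, 2.21, 2.28 and 2.31 in the TF rats and 2.16, 2.28, 2.501, 2.49 and 2.33 in the CF rats, against 1.79, 1.85, 1.64, 1.66 and 1.64 in the TS rats and 2.02, 1.96, 1.93, 1.82 and 2.01 in the CS rats. Every fish oil rat was above every soybean oil rat, with CF-1 the lowest of the fish oil rats. The means were 2.33 ± 0.101 in TF and 2.35 ± 0.145 in CF, against 1.71 ± 0.0980 in TS and 1.95 ± 0.0803 in CS (SD, n = 5 each). Ech1 rose with fish oil by 0.51 (SE 0.0482, 95% interval 0.41 to 0.61), or 2.43-fold. Its adjusted p of 1.44e-05 was the lowest among the 9 genes, and with any 1 rat left out it stayed at or below 6.45e-05.

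Decr2, the peroxisomal 2,4-dienoyl-CoA reductase, had z of 2.18, 2.19, 2.06, 2.14 and 1.98 in the TF rats and 2.03, 2.05, 2.14, 2.08 and 1.99 in the CF rats, against 1.98, 1.89, 1.91, 1.77 and 1.70 in the TS rats and 1.86, 1.77, 1.79, 1.81 and 1.79 in the CS rats. The CF rats were all above the CS rats, whose values lay close together. On tofu the ranges overlapped slightly, with TF-7 at 1.98 and TS-1 at 1.98. Decr2 rose with fish oil by 0.26 (SE 0.0372, 95% interval 0.18 to 0.33), or 1.56-fold, with an adjusted p of 0.00224.

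Pex11a encodes a peroxisomal membrane protein that elongates and divides peroxisomes. Its z was 1.36, 1.57, 1.28, 1.30 and 1.33 in the TF rats and 1.21, 1.44, 1.55, 1.39 and 1.30 in the CF rats, against 0.96, 1.01, 0.93, 0.84 and 0.82 in the TS rats and 1.12, 0.94, 0.94, 0.75 and 1.11 in the CS rats. Every fish oil rat was above every soybean oil rat, with CF-1 the lowest of the fish oil rats and CS-1 the highest of the others. Pex11a rose with fish oil by 0.43 (SE 0.0539, 95% interval 0.32 to 0.54), or 2.11-fold, with an adjusted p of 0.000396. With any 1 rat left out the adjusted p stayed at or below 0.00147.

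The second probe set of Pex11a was dimmer, with z of 0.12, 0.87, 0.47, 0.57 and 0.66 in the TF rats and -0.014, 0.72, 0.82, 0.65 and 0.72 in the CF rats, against -0.091, -0.011, 0.095, -0.049 and 0.038 in the TS rats and -0.15, 0.070, 0.17, 0.19 and 0.17 in the CS rats. TF-3 and CF-1 lay among the soybean oil rats, while the other fish oil rats were all above them. Its oil effect was 0.52 (SE 0.0977, adjusted p 0.0281), near that of the brighter probe set. In all 4 groups the lowest value belonged to the rat with low 5′ β-actin, on average 0.42 below the rest of its group. The brighter probe set was lowest in that rat only in CF. The part of 5′ β-actin in these values was not tested. With 1 rat left out the call was kept without TF-3, TF-5, CF-1, TS-4, CS-6 or CS-7 and lost in the other 14 fits, with a highest adjusted p of 0.0727. Without the 3 least correlated arrays the adjusted p was 0.183. CF differed from CS by 0.49 (limma adjusted p 0.717), and by 0.58 without the 4 rats with low 5′ β-actin (adjusted p 0.00606). TF differed from TS by 0.54 (adjusted p 0.378), and by 0.63 without these 4 rats (adjusted p 0.00256).

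**Figure D2:**
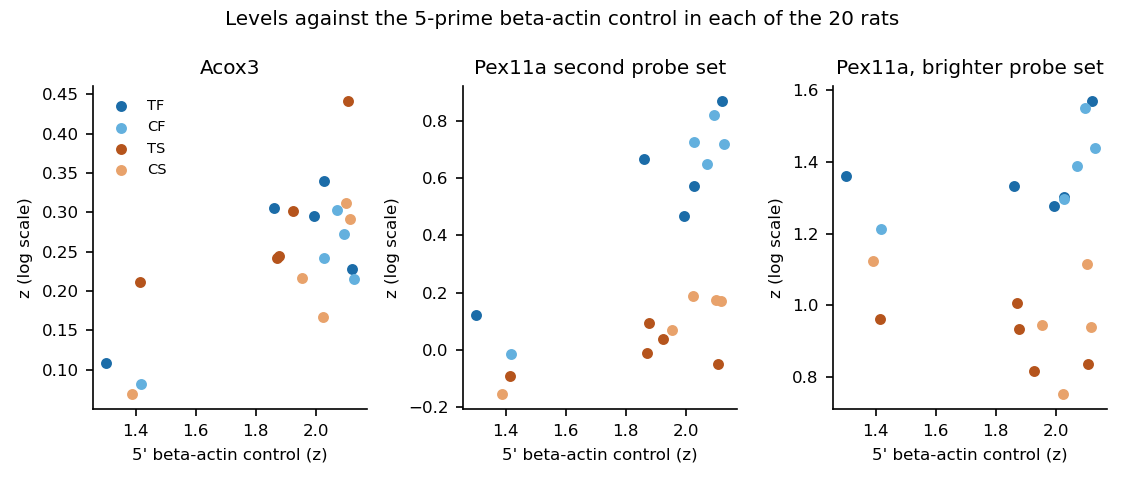
Levels of Acox3, of the second probe set of Pex11a and of its brighter probe set (y axes, z on a log scale) against the 5′ β-actin control (x axis, z) in each of the 20 rats, coloured by diet group. The 4 rats at the left, with 5′ β-actin between 1.30 and 1.42, are the lowest of their group for Acox3 and for the second Pex11a probe set, while the brighter probe set is lowest in that rat only in CF.

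Cat encodes catalase, which breaks down the hydrogen peroxide made by the oxidases. Its z was 2.95, 2.77, 2.77, 2.89 and 2.73 in the TF rats and 2.82, 2.88, 2.84, 2.89 and 2.72 in the CF rats, against 2.89, 2.85, 2.84, 2.82 and 2.72 in the TS rats and 2.73, 2.66, 2.73, 2.61 and 2.80 in the CS rats. The groups overlapped, with means of 2.82 ± 0.0904 in TF, 2.83 ± 0.0675 in CF and 2.82 ± 0.0660 in TS, against 2.70 ± 0.0727 in CS (SD, n = 5 each). The oil effect was 0.062 (SE 0.0354, 95% interval -0.012 to 0.14), with an adjusted p of 0.943. The interval includes a rise of up to 0.14 in z.

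Each oil comparison was also made on 1 protein source. These 2 comparisons share no rats. On tofu, 3 of the 9 genes rose in TF against TS, beside 0.0677% of all probe sets called: Ech1 by 0.62 (adjusted p 0.000219), Pex11a by 0.46 (adjusted p 0.0193) and Ehhadh by 0.51 (adjusted p 0.0291). On casein, 2 rose in CF against CS, beside 0.0451% of all probe sets: Ech1 by 0.41 (adjusted p 0.0282) and Ehhadh by 0.52 (adjusted p 0.0328). Pex11a differed by 0.40 on casein, with an adjusted p of 0.0686. At an unadjusted p under 0.05 there were 7 of the 9 genes on tofu, beside 5.83% of all probe sets, and 8 on casein, beside 3.52%.

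The sizes on the 2 protein sources lay close together for most genes. Decr2 differed by 0.26 on tofu and 0.26 on casein, the Acaa1a/Acaa1b pair by 0.30 and 0.29, and Abcd3 by 0.19 and 0.18. Groups did not overlap for 5 of the 9 genes on tofu (Ehhadh, Ech1, Acaa1a/Acaa1b, Pex11a and Abcd3), beside 0.432% of all probe sets in which every TF rat was above every TS rat. On casein they did not overlap for Ehhadh, Ech1, Acaa1a/Acaa1b, Pex11a and Decr2, also 5 of 9, beside 0.535% of all probe sets. With all fish oil rats against all soybean oil rats, 4 of the 9 genes did not overlap, beside 0.0805% of all probe sets.

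**Figure D3:**
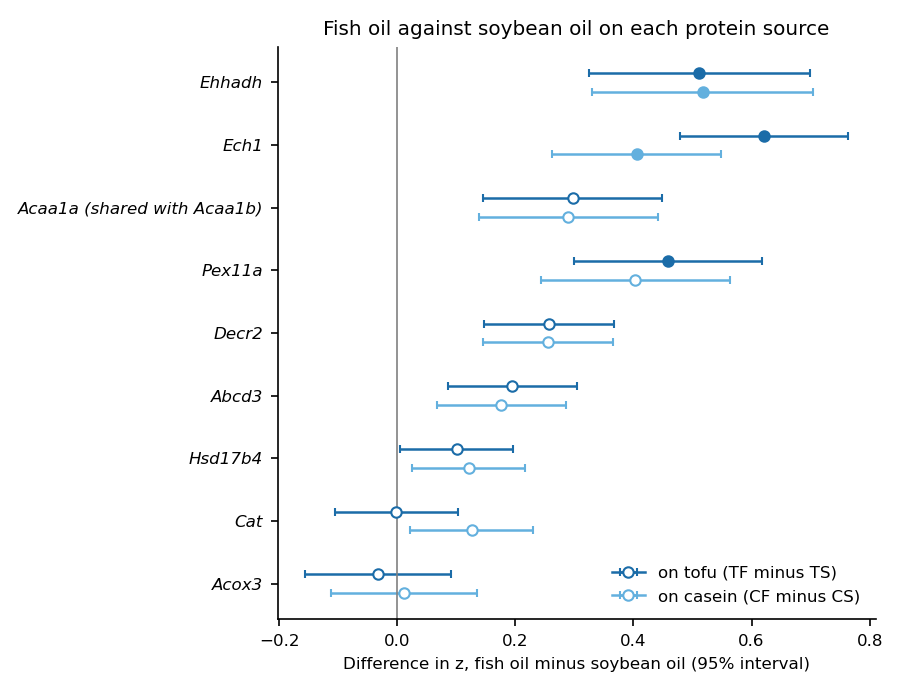
Difference in z between fish oil and soybean oil (x axis) for each of the 9 genes (y axis) on tofu (TF minus TS, dark blue) and on casein (CF minus CS, light blue), with 95% intervals. Filled points passed an adjusted p under 0.05 and open points did not. Ehhadh differed by 0.51 on tofu and 0.52 on casein, Ech1 by 0.62 and 0.41, and Cat by -0.0014 and 0.13.

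Most of these calls on 1 protein source were lost in some fits with 1 rat left out. All 4 groups share 1 estimate of the spread, so leaving out a rat outside the comparison could also move a call. On tofu the call of Ehhadh was lost when TF-3, TF-4, TF-5, TF-6, TS-2, TS-4, TS-5 or TS-7 was left out (highest adjusted p 0.124), and that of Pex11a when TF-3, TF-4, TS-4, TS-5 or TS-7 was left out (highest 0.0830). Ech1 kept its call on tofu in all 20 such fits. Without the 4 rats with low 5′ β-actin the adjusted p of Pex11a on tofu was 0.0737. Without the 3 least correlated arrays, 2 of which are TF rats and 1 a TS rat, it was 0.255 for Pex11a and 0.335 for Ehhadh on tofu, and 0.0584 for Ehhadh on casein. On casein Ech1 lost its call without CF-2, CF-5, CF-6, CF-7, CS-2, CS-5, CS-6 or CS-7 (highest 0.135). Ehhadh lost its call on casein in 12 of 20 fits (highest 0.143) and kept it without TF-3, TF-4, TF-5, TF-7, CF-1, TS-1, TS-5 or TS-7.

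Whether fish oil acted by the same amount on both protein sources was tested as an interaction, TF minus TS less CF minus CS. None of the 9 genes was called by limma, and 1 had an unadjusted p under 0.05. Over all probe sets 0% were called for the interaction, with 3.43% (1065) at an unadjusted p under 0.05. The 1 gene was Ech1, with an interaction of 0.22 (SE 0.0964, 95% interval 0.013 to 0.42, unadjusted p 0.0378, adjusted p 1.0). For Cat it was -0.13 (95% interval -0.28 to 0.021), and for Ehhadh -0.0056 (95% interval -0.27 to 0.26).

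Tofu was not accompanied by a called change in any of the 9 genes. The protein effect was called for 0 of 9 by limma, while 0.557% of all probe sets were called. At an unadjusted p under 0.05 there were 3 of the 9, beside 10.2% of all probe sets. These 3 were Ech1 with -0.13 (adjusted p 0.351), Abcd3 with -0.11 (adjusted p 0.282) and Hsd17b4 with 0.068 (adjusted p 0.485). The protein effects of the 9 genes lay between -0.13 and 0.075, a narrower span than their oil effects, -0.011 to 0.51.

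With soybean oil, TS against CS, 0 of 9 genes were called by limma, beside 0.0709% of all probe sets called, and 3 had an unadjusted p under 0.05, beside 7.15% of all probe sets. Ech1 averaged 1.71 ± 0.0980 in TS and 1.95 ± 0.0803 in CS (SD, n = 5 each), a difference of -0.23. Its adjusted p was 0.323 and its unadjusted p 0.00288, and only TS-2 at 1.85 reached into the CS range. Cat differed by 0.12 (adjusted p 0.624) and Abcd3 by -0.12 (adjusted p 0.665). With fish oil, TF against CF, 0 of 9 were called by limma, beside 0.0677% of all probe sets called, and 0 had an unadjusted p under 0.05, beside 6.9% of all probe sets. There Ech1 differed by -0.018 (95% interval -0.16 to 0.12) and Ehhadh by 0.072 (95% interval -0.11 to 0.26).

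Among rats of the same diet, a few rats were at the top or the bottom of their group for several of the 6 genes that rose. TF-3 was the highest of the TF rats in 3 and TF-4 in the other 3, CF-5 was the highest of the CF rats in 4, TS-1 of the TS rats in 4 and CS-1 of the CS rats in 5. TS-7 was the lowest TS rat in 5 of the 6, TF-7 the lowest TF rat in 4, and CF-1 and CS-6 the lowest of their groups in 3 each. TS-7 and TF-4 are among the 3 arrays least correlated with the others, and TS-1, CS-1, TF-3 and CF-1 are the rats with low 5′ β-actin. Their part in these ranks was not tested.

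**Figure D4:**
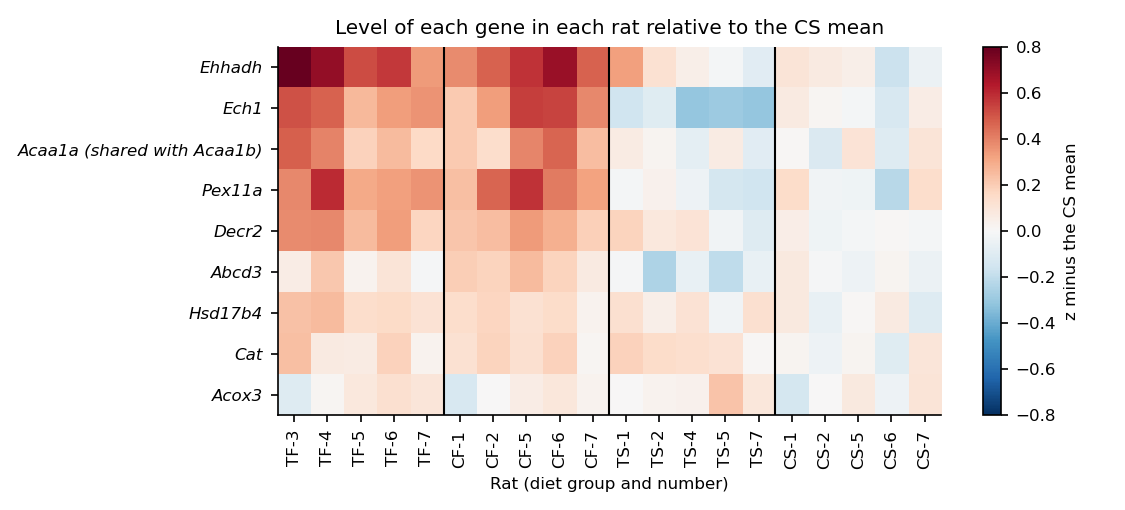
Level of each of the 9 genes (rows) in each of the 20 rats (columns, by diet group), as z minus the mean of the CS rats (colour, red above and blue below). The TF and CF columns are red for the upper 5 genes, Ech1 is blue in the TS columns, and the row of Acox3 is pale with its lowest values in TF-3, CF-1 and CS-1.

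Other peroxisomal genes were described for comparison. Of 24 measured genes of peroxisomal fatty acid oxidation and transport, 7 rose with fish oil and none fell, with a median oil effect of 0.13. Carnitine acetyltransferase (Crat) rose by 0.50 (SE 0.0611, adjusted p 0.000299) and carnitine octanoyltransferase (Crot) by 0.41 (SE 0.0447, adjusted p 6.50e-05), enzymes that make acyl-carnitines from the shortened products. The acyl-CoA thioesterases Acot4 and Acot3 rose by 0.53 and 0.50, but they are close copies of each other and probes may not separate them. The coenzyme A diphosphatase Nudt7 rose by 0.24, the dehydrogenase-like Hsdl2 by 0.35 and the very-long-chain acyl-CoA synthetase Slc27a2 by 0.16. The call of Slc27a2 was lost without TF-3, TF-6, CF-2, CF-5, CF-6, TS-4, TS-5, TS-7 or CS-5 (highest adjusted p 0.0719). It was also lost without the 4 rats with low 5′ β-actin (adjusted p 0.160) and without the 3 least correlated arrays (adjusted p 0.0724).

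Within this list 1 gene was also called for the protein source. Acot4 averaged 1.54 ± 0.125 in TF and 1.78 ± 0.141 in CF, and 0.93 ± 0.121 in TS and 1.31 ± 0.108 in CS (SD, n = 5 each). It fell with tofu by 0.31 (adjusted p 0.00924, and 0.0508 without the 3 least correlated arrays). Ephx2, soluble epoxide hydrolase, had an oil effect of 0.42 that was not called (adjusted p 0.908). It ranged from 0.61 to 2.19 in the TF rats and from 1.78 to 2.25 in the CF rats, against 0.38 to 1.54 in the TS rats and 1.44 to 1.89 in the CS rats.

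The peroxins, which import proteins into peroxisomes and build their membrane, gave smaller values than Pex11a. Of 16 measured peroxin and division genes, 0 were called for the oil effect by limma and 1 had an unadjusted p under 0.05. Over all probe sets the shares were 0.193% and 5.55%, near these counts. The median of the 16 genes was 0.030, and the largest was that of Pex16, a membrane assembly factor, at 0.091 (adjusted p 0.651). Pex3 had 0.070, Pex19 0.060 and Pex5, the import receptor, 0.053. Of 23 other peroxisomal enzymes and membrane proteins 2 rose, with a median of 0.032. Lonp2, the peroxisomal Lon protease, rose by 0.21 (adjusted p 0.00371), and Dhrs4, a carbonyl reductase, by 0.18 (adjusted p 0.0428). The call of Dhrs4 held in only 3 of 20 fits with 1 rat left out, those without TF-5, TS-7 or CS-1, and it was lost without the 4 rats with low 5′ β-actin (adjusted p 0.210) and with the mean of its probe sets (0.11, adjusted p 0.630). The oil effect of alanine-glyoxylate aminotransferase (Agxt) was 0.10 and that of isocitrate dehydrogenase (Idh1) 0.091, and neither was called.

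The receptors and their partners had oil effects near 0. Of 11 genes 0 were called by limma and 0 had an unadjusted p under 0.05, and the median was 0.00042. Over all probe sets 0.193% were called and 5.55% had an unadjusted p under 0.05, so counts of 0 are near these shares. Pparg had the highest at 0.083 and Ppard the lowest at -0.063. Rxra, the partner of PPARα, had 0.027 and the coactivator gene Ppargc1a -0.052. Ppara, named here after its values were seen, had 0.0012 (adjusted p 1.0). Ppard was brighter, with a mean z of 0.83 over all rats, but several of these probe sets were dim. Their mean z was -0.23 for Ppara, -0.27 for Ppargc1a, -0.064 for Pparg and 0.11 for Rxra. A change in mRNA may not show in probe sets this dim.

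Of 21 measured genes in a list of mitochondrial and microsomal oxidation targets, 10 rose with fish oil and none fell, with a median of 0.16. The list was picked by hand and also holds genes that are not oxidation enzymes, such as Vnn1, Pdk4 and Angptl4. The thioesterase Acot1 rose by 2.31, with soybean oil means below the middle of the array, so that no fold is given. Vnn1 rose by 0.70, Eci1 by 0.60, Acot2 by 0.60, the microsomal ω-hydroxylases Cyp4a1 and Cyp4a3 by 0.53 and 0.40, Decr1 by 0.30, Cpt2 by 0.26, Hadhb by 0.22 and Hadha by 0.19. With a gene's probe sets averaged, the oil effect of Eci1 was 0.30 (adjusted p 0.370) and that of Hadha 0.097 (adjusted p 0.892). Without the 3 least correlated arrays the adjusted p was 0.0724 for Cpt2 and 0.0588 for Hadha. With tofu, Pdk4 and Angptl4 of this list fell by 0.55 and 0.29, in a list whose median protein effect was -0.0094. The adjusted p of Pdk4 was 0.0590 and that of Angptl4 0.105 without the 4 rats with low 5′ β-actin, and that of Angptl4 was 0.0750 without the 3 least correlated arrays.

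**Figure D5:**
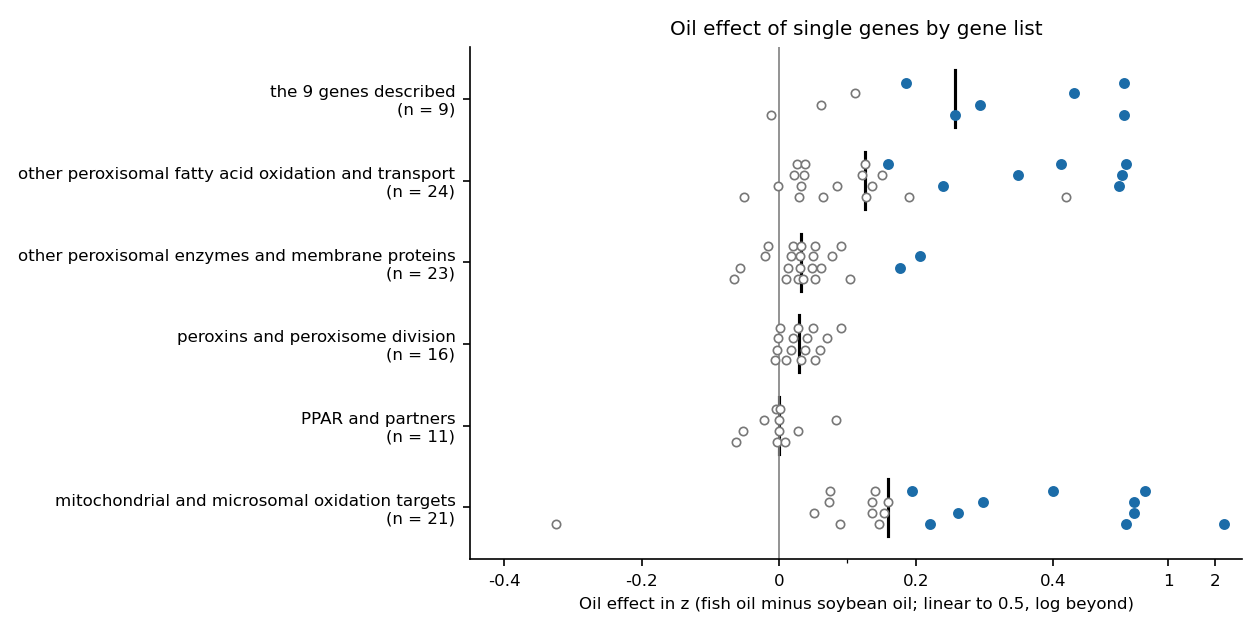
Oil effect in z (x axis, fish oil minus soybean oil, linear up to 0.5 and logarithmic beyond) of single genes in 6 lists (rows). Filled points passed an adjusted p under 0.05, open points did not, and black bars are medians. Called genes were 6 of 9, 7 of 24, 2 of 23, 0 of 16, 0 of 11 and 10 of 21 from the top row down.

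The genes whose levels followed those of the 9 most closely over the 20 arrays were found by Pearson's r with their mean profile, each gene first centred and scaled. Eci1, a mitochondrial enoyl-CoA isomerase, had the highest r at 0.947, followed by Cyp4a1 at 0.940, Hadhb at 0.926, Slc27a2 at 0.924, Aldh3a2 at 0.908, Vnn1 at 0.906, Aco1 at 0.901, Hadha at 0.899, Acaa2 at 0.896 and Hsdl2 at 0.894. The points are 20 livers in 4 diet groups, so r includes the difference between the oils. With the group means taken out, r was 0.873 for Eci1 and 0.802 for Cyp4a1. Among the other genes named it lay between 0.663 for Vnn1 and 0.849 for Aldh3a2. Aldh3a2, Aco1 and Acaa2 were not called for the oil effect (limma adjusted p 0.137, 0.0561 and 0.140).

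Markers of liver cell types were read in the same fit. Hepatocyte markers were high in every group, with a mean z of 3.33 in TF and 3.31 in CF, against 3.36 in TS and 3.28 in CS, and a median oil effect of 0.012. None of the hepatocyte, Kupffer cell, sinusoidal endothelial, stellate cell or cholangiocyte markers was called for the oil effect, beside 0.193% of all probe sets. Unadjusted p values from limma were under 0.05 for 2 of the 6 stellate cell markers and 1 of the 7 Kupffer cell and macrophage markers. None of the other markers was under 0.05, and 5.55% of all probe sets were. All 7 Kupffer cell and macrophage markers and all 6 stellate cell markers had oil effects below 0, with medians of -0.071 and -0.079. The summed z of the 7 Kupffer cell markers was 7.19 to 8.81 in TF and 7.74 to 7.99 in CF, against 7.58 to 9.30 in TS and 7.23 to 8.88 in CS. The summed z of the 6 stellate cell markers was 3.03 to 3.93 in TF and 2.98 to 3.98 in CF, against 3.85 to 4.25 in TS and 3.37 to 4.19 in CS. Their part in the oil effects of the 9 genes was not tested.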

How the data were processed

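Liver mRNA of 20 rats was measured on Affymetrix arrays, 1 array per rat without pooling. The authors deposited 1 score per probe set and rat, a z on a log scale made by the SuperNORM service, in which every array is standardized against its own signals. The software version and the treatment of background are not given in the sources used here. No depth exists for arrays, and precision is limited by 5 rats per group.

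Of 31099 probe sets, 57 controls and 3 with fewer than 3 values in a group were left out, and 63 values were missing. Gene symbols came from the platform annotation, updated by gene identifier. A single symbol was available for 20825 probe sets, several for 436 and none for 9778. The 31039 others were fitted in limma (version 3.58.1, R 4.3.3) by the means of the 4 groups without covariates, and p values were adjusted over all of them by the Benjamini-Hochberg method. A fold is given only where both group means were above 0.0244, the highest median of an array. The workflow was checked on simulated data.

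The members, the other gene lists and the alternatives were chosen with earlier results of these data known. Named genes were the 9 members, up to 4 genes of each list with the largest oil effects, genes of these lists called for the oil or protein effect, and the 10 genes most like the members' mean. The alternatives were 2 other normalizations, bright probe sets only, array weights, a robust variance trend, no moderation, the rat number as a block, fits of 2 groups, the mean of a gene's probe sets, other thresholds, and leaving out rats.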

Additional observations from a re-analysis of the deposited data

Results flagged for a closer look

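In the CF group, rat CF-1 stood apart from the other 4 rats on the second probe set of Pex11a. Its z was -0.014, against 0.65 to 0.82 in the others, and the gap made up 0.798 of the range of the group, beyond the 95% critical ratio of 0.71. This was the only such value in 40 groups tested. Chance alone flags about 1 group in 20, so 1 flag is no more than chance would give. CF-1 is 1 of the 4 rats with a low 5′ β-actin control. On the brighter probe set its z was 1.21, the lowest of the CF group but not apart from it.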

How the results depend on the processing

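The count of the 9 genes that rose with fish oil was 6 and lay between 4 and 7 under the alternatives. It was 4 at a threshold of 0.01, with the replicate block, without the 4 rats with low 5′ β-actin and without the 3 least correlated arrays, 7 with arrays scaled to the same median and interquartile range, and 5 to 6 with 1 rat left out. Ehhadh, Ech1, Pex11a and Decr2 kept an adjusted p under 0.05 in all of these fits. The protein effect, the interaction and the 2 comparisons of tofu with casein at 1 oil kept 0 calls under every alternative run. On casein (CF minus CS) the count of 2 became 0 at a threshold of 0.01, without variance moderation, with the replicate block and in a fit of the 2 groups only, 1 with scaling to the same median and interquartile range and without the 3 least correlated arrays, and 4 with bright probe sets only, with a variance trend and robust estimation and with array weights, with 0 to 3 when 1 rat was left out. On tofu (TF minus TS) the count of 3 became 0 with the replicate block and 1 at a threshold of 0.01, in a fit of the 2 groups only and without the 3 least correlated arrays, with 1 to 4 when 1 rat was left out. The oil effect on Acox3 turned sign without TF-3 (0.0077), CF-1 (0.0069), TS-5 (0.0084) or CS-7 (0.0019), within a range of -0.029 to 0.0084 over all alternatives. The cause was not tested.

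Rats of different groups share numbers in the labels. Of 22 same-numbered pairs 1 had a correlation of deviations above 0.1. The median was 0.037, against -0.0080 for pairs of other numbers. The rats with low 5′ β-actin were CF-1, TS-1 and CS-1, which share a number, and TF-3. Whether the numbers mark a shared step in the work was not tested. With the replicate block the adjusted p was 0.2002 for Acaa1a/Acaa1b, 0.112 for Abcd3, 0.259 for Slc27a2, 0.252 for Dhrs4, 0.110 for Cpt2, 0.0940 for Hadha and 0.0552 for Acot3 and Hsdl2, and no other oil call among the named genes was lost with it. For the protein effect it was 0.0638 for Acot4 and 0.0537 for Angptl4. With 5 rats per group small effects such as that of Hsd17b4 lie near what the arrays can resolve.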
